A study of Rattus norvegicus with 16 samples.

Results

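Aminoacyl-tRNA synthetases are the enzymes that load each transfer RNA with its amino acid. The genes described here are 36 members of this family, chosen by symbol among the 22587 gene symbols of a rat liver RNA-seq table: 20 whose products work in the cytosol and 16 whose symbols end in 2 and whose products work in mitochondria. Liver was taken from male rats of the strain labelled Wistar-Wyoto at 13 weeks of age, in 4 groups of 4 libraries. SHAM air and SHAM ozone rats had a sham operation, and ADREX air and ADREX ozone rats had Total Bilateral Adrenalectomy, the removal of both adrenal glands. The exposure lasted 4 hours, to air or to 0.8 ppm of ozone, an oxidant and airway irritant that is known to raise adrenal stress hormones. The treatment field of the labels gives ozone for all 8 ADREX libraries, so the groups follow the library titles and the design text of the series. Because no label says that each library is a separate animal, p-values measure the spread between these libraries.

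Cytosolic synthetases supply the ribosomes that translate nuclear messages. In animals 8 of these synthetase genes encode proteins of the multi-synthetase complex, held together by the scaffold proteins Aimp1, Aimp2 and Eef1e1, while the others lie outside it. Mitochondrial synthetases are made in the cytosol, imported, and used to translate the few proteins encoded by mitochondrial DNA. The cytosolic set is also known as a target of the amino acid response, in which uncharged transfer RNA activates the kinase Gcn2 (Eif2ak4), eIF2 is phosphorylated and the transcription factor Atf4 is translated. Atf4 binds, with a C/EBP partner, a short DNA element near the start of its target genes.

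Because Atf4 targets are central to what is known of this family, promoters of the members were searched for the core of that element, TGATGCAA, read on both strands (TTGCATCA on the other). Promoters were taken from RefSeq, build GRCr8, as windows from 250 bases before to 50 bases after each gene's start. Of the 36 members, 35 matched RefSeq, 18 by symbol and 17 by an older symbol, and 33 had a window, 17 of them cytosolic and 16 mitochondrial. The 8-letter core lay in 7 of the 17 cytosolic windows, in 0 of the 16 mitochondrial windows and in 266 of the 33469 windows of all genes, or 0.795%. Carriers included Cars, Iars, Mars, Nars, Tars and Yars, which encode the cysteinyl-, isoleucyl-, methionyl-, asparaginyl-, threonyl- and tyrosyl-tRNA synthetases. The stretch around the core is given for 4 carriers, picked because the results below turn on them. It runs 5′ to 3′ on the gene's strand, with the core in capitals. The core is identical in all 4 because it was searched for exactly, so only the letters around it could differ. They lie at chr1:208225335-208225362 (Cars, minus strand), chr17:15193659-15193686 (Iars, minus), chr7:65023753-65023780 (Mars, minus) and chr2:62114812-62114839 (Tars, minus).
Cars: ggcgccgcggTTGCATCAgattctggaa
Iars: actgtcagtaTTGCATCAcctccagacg
Mars: cccgttccggTTGCATCAgcgtgggctc
Tars: tggcgtcccgTTGCATCAgctggttagc
The first base of the core lay 24 bases before the start site in Iars, 17 before it in Mars, 27 before it in Tars and 18 after it in Cars. Among amino acid response genes, read beside the members below, 3 of the 23 with a window held the core (Chac1, Nupr1 and Fgf21). The window of Asns, a much used Atf4 target, did not. A match or its absence describes these letters only, and no binding was measured.

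Libraries held 8372891 to 14096246 reads, and values are normalized counts, that is, reads after the authors' scaling by a size factor for each library. All 8 hepatocyte markers examined were present in every library, with albumin (Alb) at 53576 to 156340 RPM (reads scaled to a library total of 1000000). Markers of neurons and oligodendrocytes, 25 genes that liver tissue should hardly hold, were also read in every library, and none of them was at 0 in all libraries. Their summed level ranged from 43.7 to 846 RPM for SHAM air, from 77.7 to 2905 for SHAM ozone, from 271 to 1193 for ADREX air and from 827 to 4726 for ADREX ozone. The groups overlapped, and the 3 richest libraries were SHAM ozone 18 and ADREX ozone 81 and 82. Tests were repeated with the neural level as a covariate and without those 3 libraries, and the values are given where a call was lost.

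All 36 members passed the filter on low values and were among the 12791 genes tested. Levels are not compared between genes, because the table gives no transcript lengths. Cytosolic members had means over all libraries of 200.6 (Farsa) to 3704 (Eprs) normalized counts, and mitochondrial members of 36.5 (Wars2) to 680 (Iars2). The values of Mars2 and Cars2 rest on few reads, 9 to 58 and 28 to 133 per library, against 980 to 5092 for Eprs. In RefSeq's GRCr8 annotation 6 of the 35 matched members overlap another protein-coding gene. Among them Mars overlaps Ddit3, which had 18 to 68 reads per library, and Mars2 overlaps Boll, which had 0 to 1. The others are Aars, which overlaps Ddx19b, Yars, which overlaps S100pbp, and Rars2 and Sars2. Reads of the neighbours of these others are not given here. Whether the counting used strand is not given in the sources used here, so reads of such neighbours cannot be told apart.

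The comparison of ADREX with SHAM in air asks what loss of the adrenal glands does without ozone, and 2 members passed the test, 1 in each direction. Mars2, the mitochondrial methionyl-tRNA synthetase, rose 2.14-fold, and Cars2, the mitochondrial cysteinyl-tRNA synthetase, fell 2.33-fold. No cytosolic member passed, although 17 of the 20 had a negative log2 change, with a median of -0.34. The test was limma's moderated test with Benjamini-Hochberg adjustment over all genes, called at an adjusted p under 0.05. By this rule 451 of all genes, 3.53%, were called in the same comparison. Summed markers of cholangiocytes were 4.66 to 8.92 RPM for SHAM air and 13.4 to 18.6 for ADREX air, of lymphocytes 1.91 to 2.37 and 2.97 to 4.66, and of Kupffer cells and macrophages 390 to 532 and 480 to 1031. Those of sinusoidal endothelium were 372 to 419 and 261 to 553, and of stellate cells 129 to 193 and 79.3 to 180, both with lower means in ADREX air. Red cell markers were 39.4 to 154 and 29.6 to 150. The part of these markers in the changes of Mars2 and Cars2 was not tested. In whole liver, fewer cells of a type and less RNA per cell cannot be told apart.

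**Figure D1:**
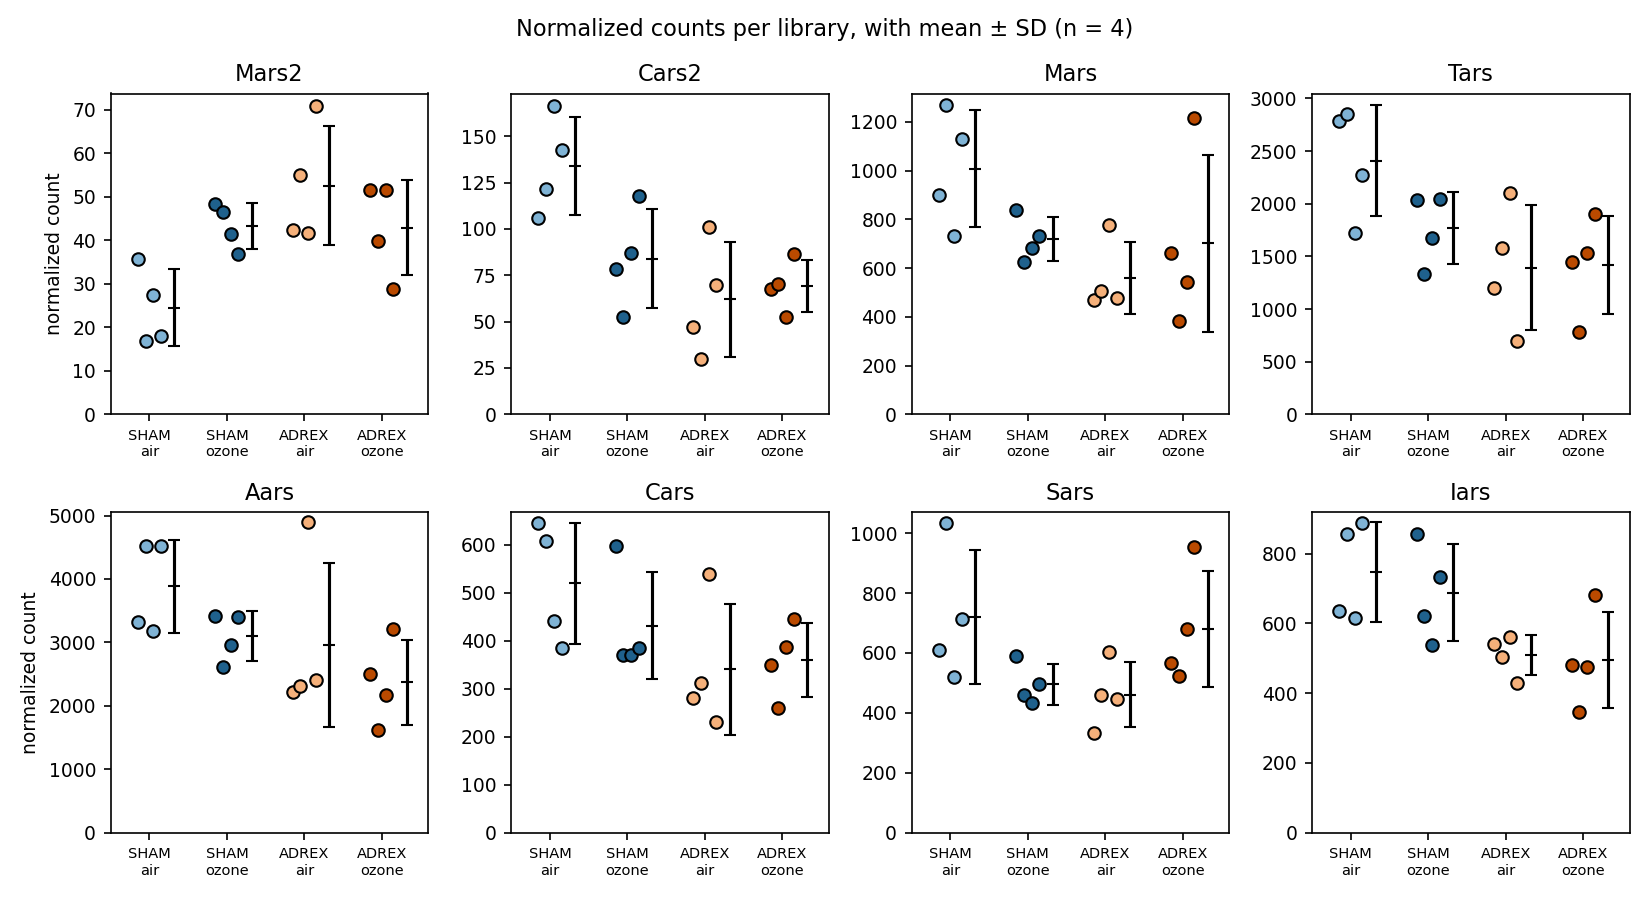
Normalized counts of 8 synthetase genes (vertical axes from 0) in each library (points), by group, with the group mean ± SD beside the points (n = 4). SHAM air libraries lie below all ADREX air libraries for Mars2 and above all of them for Cars2.

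Mars2 had 35.7, 16.8, 27.5 and 18.1 normalized counts in SHAM air libraries 1 to 4, and 42.4, 55.1, 41.7 and 70.9 in ADREX air libraries 65 to 68. It had 48.3, 46.5, 41.4 and 36.9 in SHAM ozone libraries 17 to 20, and 51.5, 39.8, 51.6 and 28.8 in ADREX ozone libraries 81 to 84. SHAM air was thus the low group: its libraries lay below every ADREX air and every SHAM ozone library, while the ADREX ozone group overlapped it through library 84. The log2 change from SHAM air (24.5 ± 8.86, SD, n = 4) to ADREX air (52.5 ± 13.7) was 1.10 ± 0.29 (SE), with a limma adjusted p of 0.0474. On recovered reads the adjusted p was 0.0604 with edgeR and 0.0271 with DESeq2. The call held in 10 of 28 alternatives, with adjusted p from 0.0206 to 0.151. Among single libraries left out, it held without SHAM air 1 or 3, ADREX air 67 or ADREX ozone 84 and was lost without any of the other 12.

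Cars2 had 106, 121, 166 and 142 normalized counts in SHAM air libraries 1 to 4, and 47.1, 29.7, 101 and 69.7 in ADREX air libraries 65 to 68. It had 78.5, 52.6, 87.1 and 118 in SHAM ozone libraries 17 to 20, and 67.5, 70.2, 52.7 and 86.4 in ADREX ozone libraries 81 to 84. SHAM air was the high group, and it overlapped only SHAM ozone, through library 20. The log2 change from SHAM air (134 ± 26.3, SD, n = 4) to ADREX air (61.9 ± 30.9) was -1.22 ± 0.32 (SE), with a limma adjusted p of 0.0486, 0.0764 with edgeR and 0.0261 with DESeq2. The call held in 12 of 29 alternatives, with adjusted p from 0.00914 to 0.155. It held on leaving out library 18, 20, 67 or 84 and was lost without any of the other 12 libraries. With the neural level as a covariate the log2 change was 0.96 for Mars2 (limma adjusted p 0.138) and -1.16 for Cars2 (0.12). Without the 3 libraries rich in neural markers, none of which is in this comparison, the changes stayed at 1.10 and -1.22 and the adjusted p, through the shared estimate of the spread, was 0.0754 and 0.0648. Of the cytosolic counterparts, Mars had a log2 change of -0.85, opposite in sign to Mars2, and Cars of -0.65, neither called.

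Over all 36 members 10 had an unadjusted p under 0.05, or 27.8%, and 6 to 13 had on leaving out 1 library (3 to 15 over all alternatives). Among cytosolic members, 7 of 20 had an unadjusted p under 0.05 in this comparison, all with negative changes, against 20.2% of all genes tested. They were Mars, Nars, Tars, Sars, Iars, Cars and Lars, with limma adjusted p from 0.107 for Mars to 0.223 for Lars. Tars, the threonyl-tRNA synthetase, had the lowest log2 change of the cytosolic set, -0.87 ± 0.31 (SE, adjusted p 0.137). Its values were 2790, 2852, 1720 and 2270 normalized counts in SHAM air and 1198, 1576, 2106 and 697 in ADREX air, so that the groups overlapped through SHAM air 3 and ADREX air 67.

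Mars, the cytosolic methionyl enzyme, had 899, 1270, 731 and 1130 normalized counts in SHAM air and 467, 507, 777 and 477 in ADREX air. The groups overlapped only through the same libraries, SHAM air 3 and ADREX air 67. Aars, the alanyl enzyme, had 3320, 4513, 3186 and 4523 in SHAM air and 2218, 2306, 4892 and 2408 in ADREX air. For Aars, ADREX air 67 stood above all SHAM air libraries and the other 3 ADREX air libraries stood below them. Cars had 646, 607, 440 and 385 in SHAM air and 280, 311, 539 and 231 in ADREX air, and library 67 alone of the ADREX air libraries reached the SHAM air range. Lars, the leucyl enzyme, had 704, 1098, 453 and 1011 in SHAM air and 449.6, 540, 648 and 394 in ADREX air, and the groups overlapped through SHAM air 3. Iars, the isoleucyl enzyme, had 615 to 887 in SHAM air and 430 to 561 in ADREX air, with no overlap, and a log2 change of -0.54 ± 0.20 (SE, limma adjusted p 0.154).

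ADREX air 67 was the highest of its group for 15 of 20 cytosolic and 11 of 16 mitochondrial members. Its summed hepatocyte markers reached 152731 RPM, against 110253 to 127752 in the other ADREX air libraries, and its summed neural markers, 271 RPM, were the lowest of the group. Over the groups, summed hepatocyte markers ran from 143929 to 205679 RPM for SHAM air and from 110253 to 152731 RPM for ADREX air. The part of these levels in the cytosolic changes was not tested. Without ADREX air 67, limma called 6 members in place of 2: Mars (log2 change -1.03, adjusted p 0.0473), Aars (-0.73, 0.0488), Cars (-0.90, 0.0342), Tars (-1.11, 0.0442), Cars2 (-1.50, 0.00914) and Mars2 (1.20, 0.0353). Over all genes it then called 824 in place of 451. Without SHAM air 3 it called 3 members, Mars (-0.998, 0.0498), Lars (-0.88, 0.0474) and Mars2 (1.17, 0.0379), and 1004 of all genes. Without ADREX ozone 84 it called Mars (-0.85, 0.0354) beside Cars2 and Mars2, and 536 of all genes. With the neural level as a covariate 0 members and 195 of all genes were called, and the median cytosolic log2 change was -0.20.

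The 3 cytosolic members with positive changes in air were Qars at 0.22, Vars at 0.18 and Wars at 0.06 on the log2 scale, for glutaminyl-, valyl- and tryptophanyl-tRNA synthetase. Cytosolic members in and outside the complex had medians near each other: -0.39 over the 8 genes of the multi-synthetase complex, 7 of them negative, and -0.34 over the 12 others, 10 of them negative. The subunits of phenylalanyl-tRNA synthetase, which work as pairs, had log2 changes of -0.04 (Farsa) and -0.18 (Farsb). Gars and Kars, whose genes also encode the mitochondrial glycyl and lysyl enzymes, had -0.24 and -0.15. The 7 carriers of the element core all had negative changes, from -0.87 to -0.42 with a median of -0.55. The 10 cytosolic genes with a window and no core ranged from -0.65 to 0.22 with a median of -0.17, and 7 were negative. The median of all genes tested was 0.04 in air. In the other comparisons the medians of carriers and of those without the core were -0.28 and -0.23 for ozone in SHAM and 0.13 and 0.11 for ozone in ADREX. They were 0.40 and 0.31 for the difference of ozone effects, and -0.25 and 0.17 for ADREX against SHAM under ozone. The difference between carriers and the others was not tested.

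Of the mitochondrial members 9 of 16 had negative changes in air, with a median log2 change of -0.02, and the difference from the cytosolic set was not tested. Beside Mars2 and Cars2, the change with an unadjusted p under 0.05 was that of Wars2, the mitochondrial tryptophanyl enzyme (-0.66 ± 0.26, SE, limma adjusted p 0.179). Its mean was 48.1 normalized counts in SHAM air and 29.7 in ADREX air. The remaining mitochondrial members had log2 changes from -0.31 (Vars2) to 0.24 (Sars2), with adjusted p of 0.392 and 0.667.

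**Figure D2:**
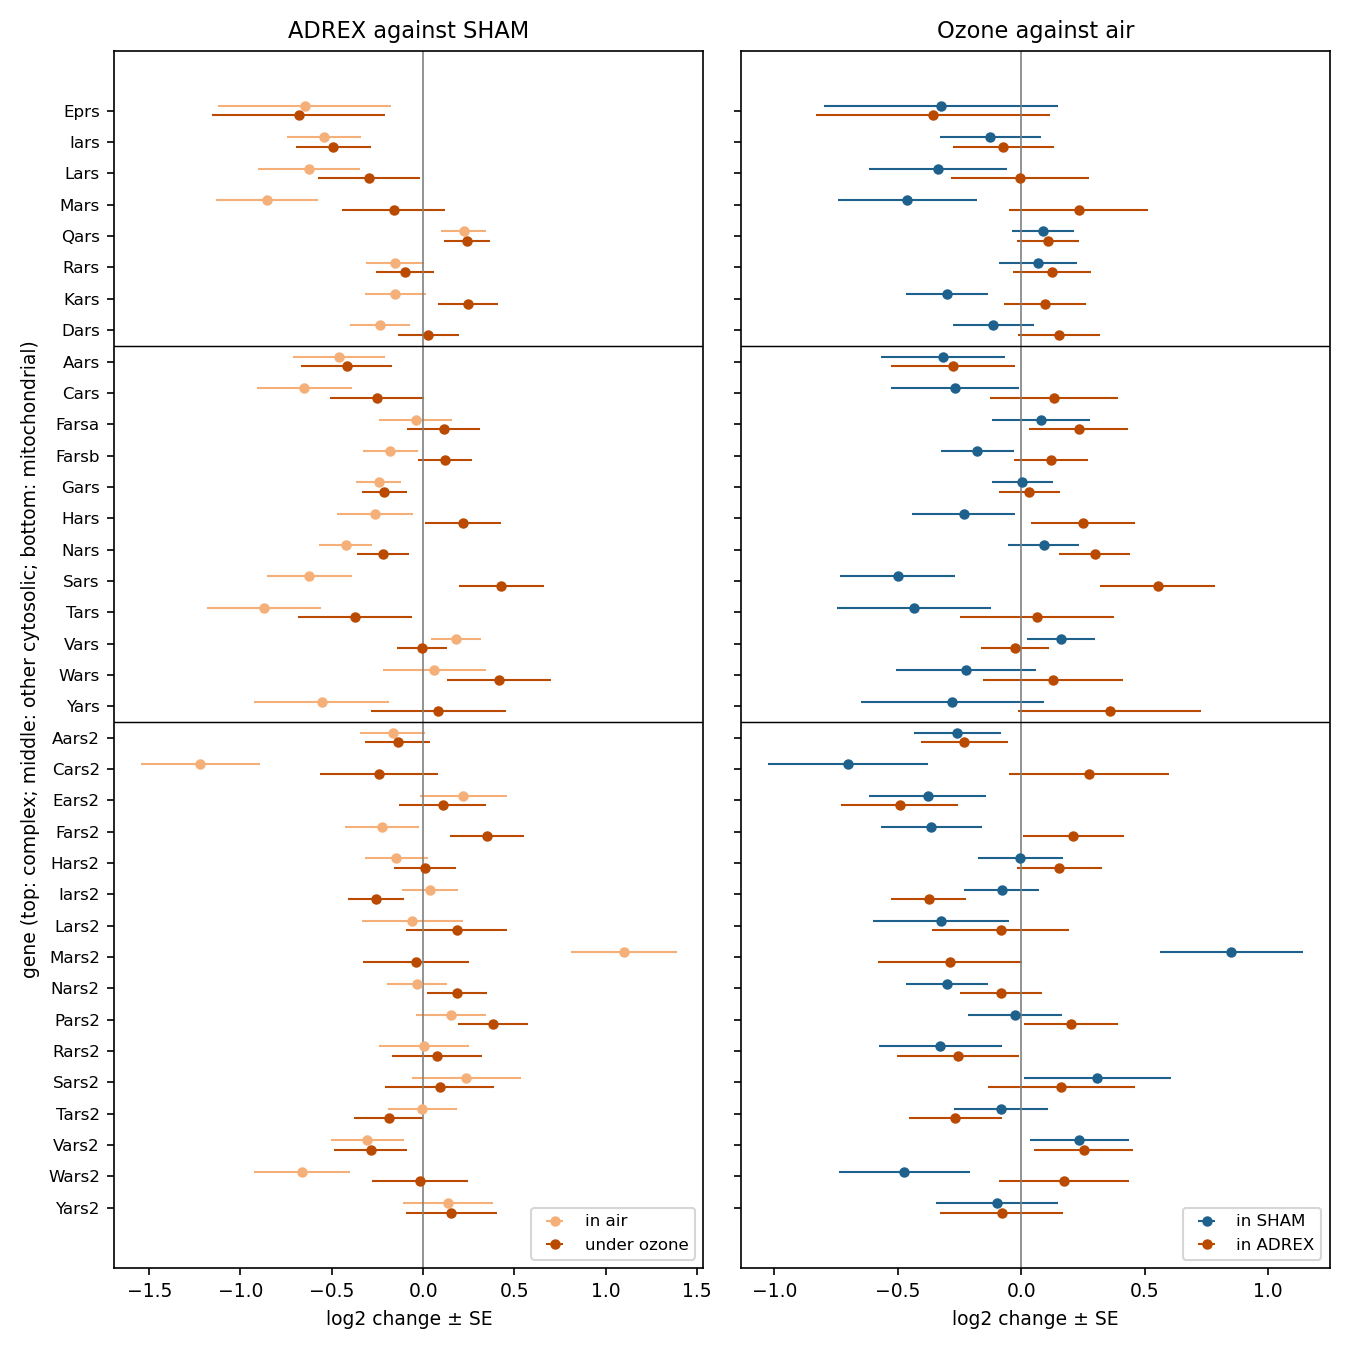
Log2 changes (horizontal axes) of the 36 members with bars of 1 SE, comparing surgeries within each exposure (left) and exposures within each surgery (right), with genes ordered by set. In air, 17 of 20 cytosolic changes after ADREX lie below 0, and for ozone in ADREX 15 of 20 lie above 0.

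Ozone against air in SHAM rats asks how the liver responds with adrenal glands in place, and no member passed the limma test. Of all genes, 1.58% were called, or 202, which became 38 to 658 on leaving out 1 library and 536 with DESeq2. Neither edgeR nor DESeq2 called a member, and 3 of 36 had an unadjusted limma p under 0.05, or 8.33%, against 18.4% of all genes. These were Mars2 (log2 change 0.85 ± 0.29, SE, adjusted p 0.144), Cars2 (-0.70 ± 0.32, 0.263) and Sars, the seryl-tRNA synthetase (-0.50 ± 0.23, 0.265). Cytosolic changes were negative for 14 of 20, with a median of -0.23, and mitochondrial changes for 13 of 16, with a median of -0.18, while the median of all genes was 0.01. This comparison and the one in air share the SHAM air libraries, in which Mars2 was low and Cars2 was high. Summed cholangiocyte markers were 4.66 to 8.92 RPM for SHAM air and 10.1 to 13.7 for SHAM ozone. Those of sinusoidal endothelium were 372 to 419 and 210 to 371, while the ranges of the other marker lists overlapped. The part of these markers in the changes was not tested.

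In ADREX rats ozone against air gave 0 called members with limma, edgeR and DESeq2, where limma called 0.125% of all genes, or 16. That count became 0 to 50 on leaving out 1 library, 49 with edgeR and 570 with DESeq2. An unadjusted limma p under 0.05 was reached by 2 of 36 members, or 5.56%, against 17.8% of all genes. Iars2, the mitochondrial isoleucyl enzyme, had 736, 651, 874 and 702 normalized counts in ADREX air and 602, 431, 570 and 702 in ADREX ozone, and the groups overlapped through ADREX ozone 84. Its log2 change was -0.38 ± 0.15 (SE, limma adjusted p 0.228). The other member was Sars, described next. Cytosolic changes were negative for 5 of 20, with a median of 0.12, and mitochondrial changes for 9 of 16, with a median of -0.08, beside a median of 0.06 over all genes.

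The difference between those ozone effects asks whether the response depends on the adrenal glands. None of the 36 members passed with limma, edgeR or DESeq2, and limma called 0.109% of all genes, or 14, against 24 with edgeR and 248 with DESeq2. An unadjusted limma p under 0.05 was reached by 3 of 36 members, or 8.33%, against 12.9% of all genes. Sars had the smallest p of the members. It had 609, 1035, 521 and 714 normalized counts in SHAM air and 590, 460, 434 and 497 in SHAM ozone. It had 334, 461, 602 and 448 in ADREX air and 565, 525, 680 and 954 in ADREX ozone. Group means were thus lower with ozone in SHAM (720 ± 225 to 495 ± 68.4, SD, n = 4) and higher with ozone in ADREX (461 ± 110 to 681 ± 194), and in both surgeries the air and ozone libraries overlapped. The difference of the log2 changes was 1.05 ± 0.33 (SE, 95% interval 0.36 to 1.75, p 0.00548, limma adjusted p 0.205), and it missed the threshold in all 28 alternatives, with adjusted p from 0.0665 to 0.384.

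Mars2 had a difference of -1.14 ± 0.41 (SE, limma adjusted p 0.271) and Cars2 of 0.98 ± 0.46 (0.385). Over the cytosolic set 18 of 20 differences were positive, with a median of 0.28, against a median of 0.07 over all genes. Over the mitochondrial set 11 of 16 were positive, with a median of 0.05.

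Between ADREX and SHAM under ozone 12.5% of all genes tested passed, and no synthetase gene was among them. Again edgeR and DESeq2 called 0 members, and 1 of 36, or 2.78%, had an unadjusted limma p under 0.05, against 31.2% of all genes. The count of members was 0 to 6 on leaving out 1 library and 0 to 7 over all alternatives. That gene was Iars, with 858, 621, 538 and 734 normalized counts in SHAM ozone and 480, 347, 474 and 681 in ADREX ozone. The groups overlapped through ADREX ozone 84, and the log2 change was -0.49 ± 0.20 (SE, p 0.0283, limma adjusted p 0.117). Without ADREX ozone 84 it was -0.66, with a limma adjusted p of 0.0415, and Iars was called. Over all genes 1532 were then called, in place of 1601.

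Pars2, the mitochondrial prolyl enzyme, had the next smallest p (0.0614, limma adjusted p 0.182). It had 104, 81.96, 83.8 and 73.7 normalized counts in SHAM ozone and 99.5, 146, 112 and 94.99 in ADREX ozone, and the groups overlapped. Cytosolic changes under ozone had a median of -0.05, with 11 of 20 negative, and mitochondrial changes a median of 0.04, with 7 of 16 negative, beside a median of 0.11 over all genes. The cytosolic median was thus nearer 0 than in air. The tests of the difference for single genes are those given above, since ADREX against SHAM under ozone minus that in air is the same quantity.

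**Figure D3:**
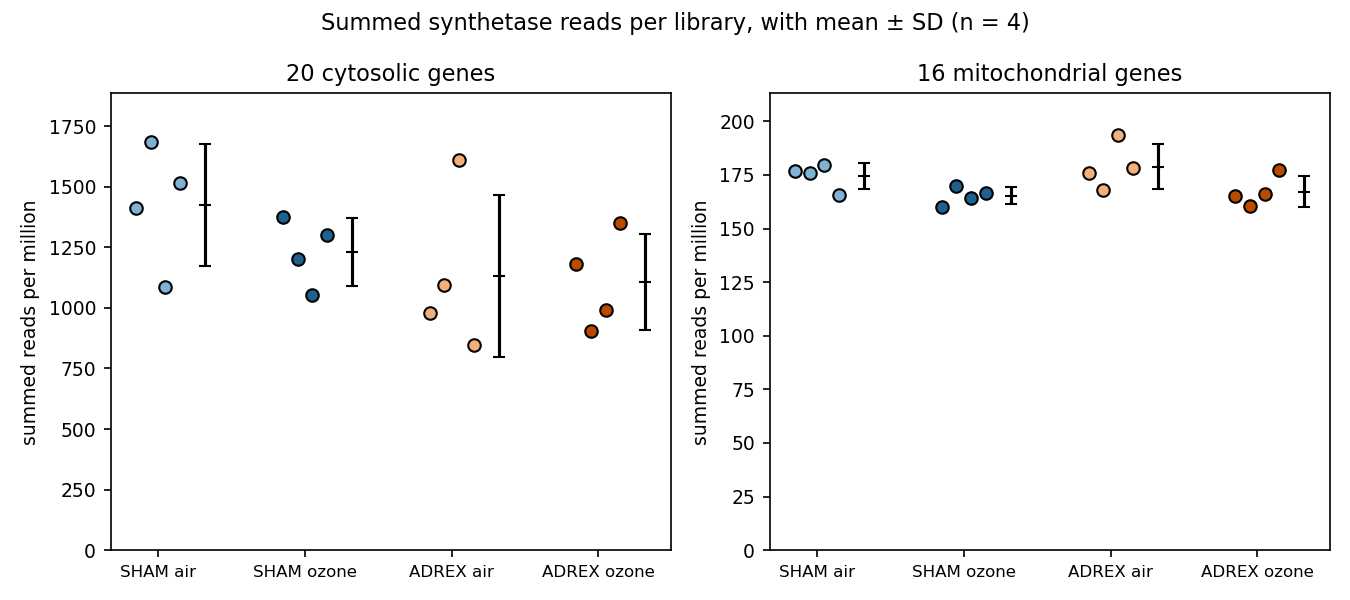
Summed level of the 20 cytosolic and of the 16 mitochondrial members in each library (points), in RPM, by group, with the group mean ± SD (n = 4). Cytosolic sums run from 846 to 1683 and mitochondrial sums from 160 to 194 RPM.

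Summed over the set, cytosolic synthetase reads spanned a wider range between libraries than mitochondrial ones. The cytosolic sum spanned 846 RPM (ADREX air 68) to 1683 RPM (SHAM air 2), a range of 1.99-fold, and the mitochondrial sum spanned 160 to 194 RPM, a range of 1.21-fold. Group means of the cytosolic sum (SD, n = 4) were 1424 ± 251 RPM for SHAM air, 1232 ± 139 for SHAM ozone, 1131 ± 334 for ADREX air and 1106 ± 198 for ADREX ozone, and the groups overlapped. Those of the mitochondrial sum were 175 ± 6.06, 165 ± 3.97, 179 ± 10.7 and 167 ± 7.18 RPM in the same order. Sums are weighted to abundant genes: Eprs, the glutamyl-prolyl enzyme that is the largest contributor by mean count, ranged from 1027 (ADREX ozone 82) to 7386 normalized counts (SHAM air 4), 7.20-fold.

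**Figure D4:**
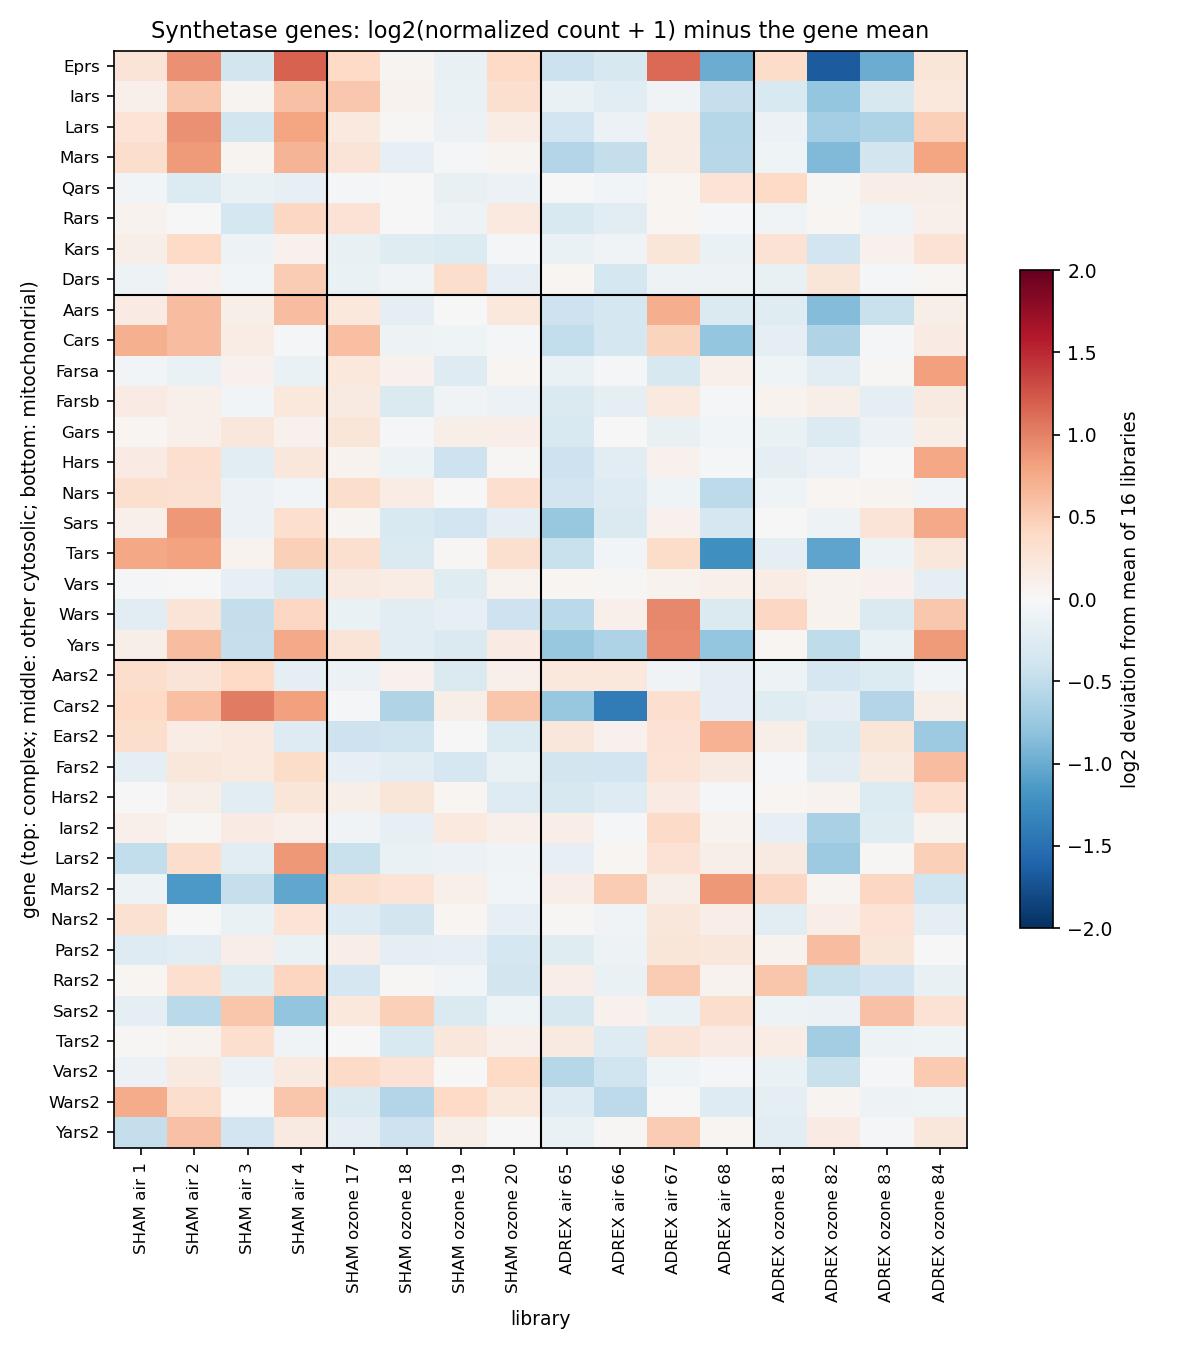
Log2(normalized count + 1) of each member minus its mean over the 16 libraries (color scale, blue lower and red higher), with genes in rows by set and libraries in columns by group. ADREX air 67, SHAM ozone 17 and ADREX ozone 84 are each the highest of their group for 15 of 20 cytosolic genes.

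Libraries of the same group differed in the cytosolic set as a whole. SHAM ozone 17 and ADREX ozone 84 were each the highest of their group for 15 of 20 cytosolic members, as ADREX air 67 was. At the other end, SHAM air 3 was the lowest of its group for 14, ADREX ozone 82 for 13 and SHAM ozone 19 for 12. Of the 16 mitochondrial members, ADREX air 67 was the highest of its group for 11, ADREX ozone 84 for 8 and SHAM ozone 17 for 2. ADREX ozone 82 was the lowest of its group for 8 of them, SHAM air 3 for 5 and SHAM ozone 19 for 4. Such ranks were not counted over all genes. ADREX ozone 82 had the highest summed neural markers of all libraries, 4726 RPM, and the lowest summed hepatocyte markers, 99843 RPM, and SHAM air 3 had the highest neural sum of its group, 846 RPM. In contrast, SHAM ozone 18 and ADREX ozone 81, with neural sums of 2905 and 1949 RPM, were the lowest of their groups for 6 and 4 cytosolic members, and SHAM ozone 19 had a neural sum of 608 RPM. SHAM ozone 17 and ADREX ozone 84 had the highest hepatocyte sums of their groups, 157451 and 206452 RPM. The part of these levels in the spread was not tested. Within-group SDs on the log2 scale ran from 0.12 for Qars to 0.76 for Eprs in the cytosolic set (median 0.30) and from 0.19 for Iars2 to 0.49 for Cars2 in the mitochondrial set (median 0.29), against a median of 0.37 over all genes.

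Partner genes of the pathway were read beside the members. The scaffold genes of the multi-synthetase complex, Aimp1, Aimp2 and Eef1e1, gave 0 calls in the 5 comparisons with limma, edgeR and DESeq2. At an unadjusted p under 0.05, 1 of the 3 passed for ozone in SHAM and 1 in air, in both cases Eef1e1, with log2 changes of 1.14 ± 0.48 and 1.05 ± 0.48 (SE, limma adjusted p 0.230 and 0.237). The 10 partners of mitochondrial tRNA charging, such as Qrsl1, Gatb and Gatc, which make glutaminyl-tRNA in mitochondria where no glutaminyl synthetase works, gave 0 calls with those tools and 0 to 3 genes a comparison at an unadjusted limma p under 0.05. The 6 tested genes of selenocysteine charging and proofreading gave 0 calls and 0 to 2 at an unadjusted p. Of 13 eIF2 kinases and eIF2 cycle genes limma called 0, with 1 to 4 at an unadjusted p, while DESeq2 called 1 for ozone in ADREX and both DESeq2 and edgeR called 1 under ozone.

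Of the 24 amino acid response genes listed, 20 were tested. In air 11 of these had positive log2 changes and 9 negative, with a median of 0.27. An unadjusted limma p under 0.05 was reached by 25% of them, against 20.2% of all genes. These were Atf3 (log2 change 1.47) and Slc7a1 (0.99), higher in ADREX, and Atf5, Cth and Shmt2 (-0.72), lower. Atf4 itself had a log2 change of -0.27 ± 0.20 in air (SE, limma adjusted p 0.466), and its highest ADREX air value, 2265 normalized counts, was again that of library 67, against 1092 to 1452 in the others. Asns, asparagine synthetase and a much used Atf4 target, was called in none of the comparisons, with adjusted p of 0.893 in air and 0.411 under ozone. Atf5, a transcription factor related to Atf4, was the gene of the list that limma and edgeR called in air. DESeq2 called it and Cth, cystathionine gamma-lyase (limma log2 change -1.10, DESeq2 adjusted p 0.0177). Over all genes limma called 451 there, edgeR 378 and DESeq2 835. Atf5 had 3351, 2662, 2638 and 1958 normalized counts in SHAM air and 926, 1313, 1611 and 1702 in ADREX air, with no overlap, a log2 change of -0.95 ± 0.23 (SE) and a limma adjusted p of 0.0345. The call was lost in 7 of 29 alternatives: without SHAM air 1 or 2 or ADREX air 65 or 66 (adjusted p 0.0865 to 0.109), with the compared groups alone (0.0753), with the neural covariate (log2 change -0.87, 0.106) and without the 3 libraries rich in neural markers (0.0529). Those 3 are not in this comparison, so the change stayed at -0.95.

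Under ozone limma called 1 of the 20 tested genes of the amino acid response list, beside 12.5% of all genes. It was Slc7a5, a transporter of large neutral amino acids, higher in ADREX. With edgeR Atf5 was called too, lower in ADREX (limma log2 change -0.71, edgeR adjusted p 0.0426), and DESeq2 called 6: Slc7a5, Atf5, Atf3, Shmt2, Vldlr and Cth. Over all genes edgeR called 1585 and DESeq2 2193, against 1601 with limma. Slc7a5 had 51.3, 109, 82.7 and 31.0 normalized counts in SHAM ozone and 145, 223, 139 and 130 in ADREX ozone, with no overlap. Its log2 change was 1.32 ± 0.37 (SE, limma adjusted p 0.0275). It was 1.38 without the 3 libraries rich in neural markers (adjusted p 0.0999) and 0.87 with the neural covariate (0.0908). The call was also lost without SHAM ozone 17 (0.0797), SHAM ozone 20 (0.096) or ADREX ozone 82 (0.083). For ozone in SHAM and in ADREX and for their difference limma called 0 genes of the list, with 4, 6 and 1 at an unadjusted p, edgeR called 0, and DESeq2 called 2, 1 and 0.

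Elongation factors use charged transfer RNA at the ribosome: Eef1a1 delivers it, Eef1b2, Eef1d and Eef1g belong to the factor that recharges Eef1a1 with GTP, and Eef2, held in check by the kinase Eef2k, moves the ribosome along. Under ozone limma called 12.5% of all genes. Of 6 cytosolic factors, 3 were called under ozone, all higher in ADREX: Eef1b2 (log2 change 1.13 ± 0.19, SE, adjusted p 0.00162), Eef1a1 (0.86 ± 0.22, 0.0195) and Eef1g (0.78 ± 0.16, 0.00584). Eef1b2 had 519, 475, 474 and 552 normalized counts in SHAM ozone and 1189, 1171, 869 and 1221 in ADREX ozone, with no overlap. Without the 3 libraries rich in neural markers the log2 change was 1.001 for Eef1b2 (limma adjusted p 0.051) and 0.94 for Eef1a1 (0.0968), and without SHAM ozone 20 it was 0.83 for Eef1a1 (0.0585). Factors of this kind have near-identical processed copies in the genome, so their counts are uncertain. Of 9 mitochondrial translation factors, 1 was called under ozone, again beside 12.5% of all genes. Gfm1, which moves the mitochondrial ribosome along, was lower in ADREX (log2 change -0.61 ± 0.12, SE, adjusted p 0.00578). It had 1252, 1166, 1225 and 1283 normalized counts in SHAM ozone and 835, 840, 843 and 712 in ADREX ozone, with no overlap. In the other 4 comparisons limma, edgeR and DESeq2 called 0 genes of either list, with 0 to 3 of each list at an unadjusted limma p under 0.05.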

How the data were processed

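Liver mRNA of 16 libraries was measured. Deposited values are a signal unit, gene read counts after the authors' division by a size factor for each library. Partek, DESeq2 and build rn6 were used, per the submitters' processing notes. Their versions, the aligner, the counting and the annotation: not given in the sources used here. Whole reads were recovered from the steps of each column, 100% of values lying within 0.01 of a whole number, and RPM are recovered reads scaled to a total of 1000000. No column was left out.

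Genes with a mean of at least 14.7 normalized counts (1 in 1000000 of the median column total), 12791 in all, were tested with limma-trend 3.58.1 in R 4.3.3 on log2(value + 1), two-sided, with 4 group means over all libraries (degrees of freedom: 12 residual, 4.42 prior), adjusted by Benjamini-Hochberg over all genes. Fold changes on this scale understate changes of low genes. Adjusted p-values are limma's unless edgeR 4.0.16 or DESeq2 1.42.0, both run on recovered reads, is named. The script recovered known changes when tested on simulated data, but those changes were larger than most changes of the members. Recovery of smaller changes was not examined. Alternatives were other pseudocounts, filters and scalings, array quality weights, a robust fit, the compared groups alone, those other tools, the neural marker level as a covariate, and leaving out libraries. Per-library values are given for members called in a comparison and for those with the smallest p in each. Values of Mars, Aars, Tars, Cars and Lars are given because they were called without 1 library, a choice made after values were seen. Of partner genes, those called are named, with Atf4 and Asns. Members and lists were chosen with earlier results of these data known. A sequence of 1 further promoter is not reported here.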

Additional observations from a re-analysis of the deposited data

Results flagged for a closer look

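Single libraries stood apart from the other 3 of their group, by Dixon's test, in 9 of 156 sets of 4 values examined, and chance gives about 1 in 20. ADREX air 67 was high for 4 members: Mars with 777 normalized counts (others 467 to 507), Kars with 544 (416 to 436), Aars with 4892 (2218 to 2408) and Yars with 1041 (317 to 352). ADREX ozone 84 was high for Farsa with 348 (170 to 200) and for Hars with 492 (249 to 284). SHAM ozone 19 was high for Dars with 662 (460 to 494), and SHAM ozone 17 for Cars with 598 (369 to 385). Among partner genes, ADREX ozone 83 was low for Asns with 39.5 (109 to 121).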

How the results depend on the processing

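For ADREX against SHAM in air, where limma called 2 members, the count was 0 with no filter, with the compared groups alone, with edgeR, with the neural level as a covariate and without the 3 libraries rich in neural markers. Calls over all genes in those settings were 360, 212, 378, 195 and 413, in place of 451. It was 1 with a filter of 5 in 1000000, which left Mars2 untested, and 430 of all genes were called. With TMM scaling it was 1, with Mars2 at a limma adjusted p of 0.0541 and 428 of all genes called. With array quality weights it was 9. Leaving out 1 library gave 0 to 6, and the cause was not tested. Calls over all genes moved too, from 451 to 1456 with the weights and to 194 to 1004 on leaving out a library. For ozone in SHAM the count was 1 with array quality weights (Mars2), where calls over all genes went from 202 to 1133. Under ozone it was 1 with those weights, where calls over all genes went from 1601 to 3414. It was 0 to 1 on leaving out a library (Iars, without ADREX ozone 84, where 1532 of all genes were called). Changes of single members were followed through the alternatives only for some members in each comparison, so others may have turned direction too. Among those followed, 1 uncalled change that turned was that of Cars2 for ozone in ADREX, where leaving out a library gave log2 changes from -0.024 to 0.56. The other was that of Mars2 under ozone, at 0.063 with array quality weights and from -0.14 to 0.13 on leaving out a library. The median cytosolic change in air stayed negative in all 29 alternatives, from -0.47 to -0.20. Medians near 0 changed sign: the cytosolic median under ozone ranged from -0.16 to 0.04, and the mitochondrial median from -0.11 to 0.06 in air, from -0.06 to 0.07 under ozone, from -0.14 to 0.04 for ozone in ADREX and from -0.02 to 0.19 for the difference. No paired analysis was possible because the replicate numbers differ between all groups. Low depth limits the mitochondrial genes with few reads, such as Mars2, with 9 to 58 per library.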
